A study of Mus musculus with 6 samples.

Results

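Among the genes measured in lenses of newborn mice were 9 that build and extend the axon, or that mark cells doing so: Tubb3, Mapt, Dcx, Stmn2, Crmp1, Dpysl3, Gap43, Septin3 and Elavl2. They were chosen because their values were higher in the mutants than in the wild types of these same arrays, so their differences are a description and carry no test. The 9 genes were represented by 21 probe sets, out of 12393 genes and 22626 probe sets. Measured were 3 arrays of Le-AP-2alpha conditional mutants, named for a targeted Tfap2a (Tcfap2a in the labels), which encodes the transcription factor AP-2alpha, and 3 arrays of their wild-type littermates. The labels give neither the Cre line nor the deleted part of the gene, and do not say whether a sample was 1 animal or a pool, so the spread between arrays may be partly technical. As background, Le-Cre lines express Cre recombinase from Pax6 regulatory sequence in the surface ectoderm that forms the lens and the corneal epithelium.

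A growing axon is held up by microtubules, which are polymers of alpha and beta tubulin, and is led by a growth cone in which microtubules and actin are remodelled. Proteins that bind tubulin decide how fast these polymers grow and shrink, and proteins of the growth cone membrane link outside signals to the cytoskeleton. Many of these genes are used as markers of young neurons. In the eye they are best known from the retina, whose ganglion cells send their axons into the optic nerve.

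Wild-type replicate 1 stood apart on the arrays as a whole. Its Pearson correlations with the other arrays, across probe sets, were 0.926 to 0.945, against 0.974 to 0.985 among the other 5 arrays, so its effect is given beside the results, in particular where leaving it out moved the value of a brightest probe set or a list by over 1.5 times. The difference between 3' and 5' control probe sets of Actb, a measure of RNA integrity and of amplification, was 1.25 to 2.16 on the log2 scale in mutants and 1.24 to 2.17 in wild types, with wild-type replicate 1 at 1.54. Lens identity was plain in both groups from the alpha crystallin Cryaa, which averaged 13.68 ± 0.08 in mutants and 13.73 ± 0.07 in wild types (log2 intensity, SD, n = 3 each). Of the 11 measured lens markers 10 were brighter than the median probe set, as were 6867 of all 12393 genes. The brightest Tfap2a probe set read 9.57, 9.64 and 9.83 in mutants and 8.36, 9.26 and 9.56 in wild types. Its difference was 0.62 ± 0.33 (log2, SE), or 0.27 without wild-type replicate 1. The other Tfap2a probe sets, both bright, differed by 1.57 ± 0.49 and 0.36 ± 0.36. Because the place of the Tfap2a probes relative to the deletion is not known here, these values do not check the labels.

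All 9 genes had higher values in every mutant array than in every wild-type array on their brightest probe set, which is given below as log2 intensity for replicates 1, 2 and 3. The log2 differences, mutant minus wild type, ran from 0.95 to 1.90 with a median of 1.46, and the median over all 12393 genes was -0.01. Of all genes, 4.22% had every mutant array above every wild-type array. Since the genes were picked for being higher, nothing is read from that contrast. Without wild-type replicate 1 the 9 differences ran from 0.47 to 1.43 with a median of 1.19, and without mutant replicate 1 from 0.61 to 1.67 with a median of 1.24. In a bulk sample, more cells that express a gene and more RNA per cell cannot be told apart.

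Tubb3, the beta tubulin isotype that is typical of neurons, is a building block of the axonal microtubule. Its probe set 1415978_at read 8.31, 7.26 and 8.0 in mutants, against 5.87, 6.97 and 6.88 in wild types. The groups did not overlap, but mutant replicate 2 lay 0.29 above the nearest wild type. The difference was 1.28 ± 0.40 (SE), or 2.43-fold, and 0.93 without wild-type replicate 1.

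Mapt encodes tau, which binds along microtubules and stabilises them in axons. Probe set 1424718_at read 6.38, 6.33 and 5.88 in mutants, against 4.0, 5.01 and 5.22 in wild types. Mutant replicates 1 and 2 were close together, and wild-type replicate 1 was the lowest array. The difference was 1.46 ± 0.36 (SE), a 2.74-fold higher value, and 1.08 without that wild type. Both other Mapt probe sets were dim, meaning below the median level of all probe sets, and did not separate the groups. They differed by 0.67 ± 0.50 and by -0.31 ± 0.24, so the higher Mapt value rests on 1 of 3 probe sets, and the mean over the 3 differed by 0.60.

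Dcx encodes doublecortin, a microtubule-associated protein of migrating and newly formed neurons. Its brightest probe set, 1418141_at, read 8.72, 7.05 and 6.48 in mutants, against 4.60, 5.54 and 6.43 in wild types. This was the widest mutant spread of the 9 genes (SD 1.16), and mutant replicate 3 exceeded wild-type replicate 3 by 0.05. The difference was 1.90 ± 0.69 (SE), or 3.72-fold, and 1.43 without wild-type replicate 1. A second Dcx probe set, 1418139_at, was more even across the mutants, at 7.14, 7.03 and 6.91, against 3.79, 6.12 and 5.56 in wild types. Its difference was 1.87 ± 0.57, or 1.19 with wild-type replicate 1 left out. The other Dcx probe sets, both dim, differed by 0.37 ± 0.20 and 0.01 ± 0.17.

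Stmn2 encodes stathmin 2 (SCG10), a growth cone protein that binds free tubulin and favours microtubule turnover. Probe set 1423281_at read 9.52, 8.70 and 7.83 in mutants, against 6.79, 7.32 and 7.67 in wild types. The mutants were spread over 1.68 and their lowest array lay 0.17 above the highest wild type. The difference was 1.43 ± 0.46 (SE), or 2.69-fold. The second Stmn2 probe set, 1423280_at, read 8.76, 7.64 and 8.01 in mutants, against 5.19, 7.20 and 6.60 in wild types, and differed by 1.81 ± 0.56. Both probe sets were brighter than the median and separated the groups, with differences of 1.19 and 1.24 without wild-type replicate 1.

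Crmp1 and Dpysl3 encode 2 of the collapsin response mediator proteins, cytosolic proteins that bind tubulin and carry semaphorin signals to the growth cone. Crmp1 read 6.74, 6.37 and 6.31 in mutants on probe set 1448289_at, against 3.72, 4.82 and 5.47 in wild types. The mutants were tight and the wild types were spread over 1.75. The difference was 1.80 ± 0.44 (SE), or 3.49-fold, and 1.33 without wild-type replicate 1.

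Dpysl3 read 11.66, 11.44 and 11.27 in mutants on probe set 1454613_at, against 9.32, 10.98 and 11.0 in wild types. Here wild-type replicates 2 and 3 were close to the mutants, and replicate 1 lay 1.67 below the mean of those 2 arrays. The difference of 1.02 ± 0.47 (SE), or 2.03-fold, became 0.47, or 1.38-fold, without wild-type replicate 1. The other probe sets of Dpysl3 were dim and overlapped between the groups, with differences of 1.01 ± 0.46 and 0.38 ± 0.29.

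Gap43 encodes a membrane-bound phosphoprotein of growth cones and regenerating axons. Probe set 1423537_at read 8.30, 7.42 and 7.07 in mutants, against 5.11, 6.45 and 6.04 in wild types. The lowest mutant lay 0.62 above the highest wild type. The difference was 1.73 ± 0.45 (SE), or 3.31-fold, and 1.35 without wild-type replicate 1.

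Septin3, a GTP-binding filament protein found mainly in neurons, had the smallest spread of the 9 genes in both groups. Probe set 1417414_at read 8.29, 8.02 and 8.22 in mutants, against 6.51, 7.04 and 6.58 in wild types. Mutants had an SD of 0.14, wild types one of 0.29, and the gap between the nearest arrays was 0.98. Of the 9 differences, 1.47 ± 0.21 (SE) for Septin3 moved least when wild-type replicate 1 was left out, to 1.37.

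Elavl2 differs from the others in role: it is a neuronal RNA-binding protein that stabilises messages and shapes their splicing in differentiating neurons. Probe set 1421883_at read 7.64, 6.81 and 6.44 in mutants, against 5.63, 6.26 and 6.17 in wild types. Mutant replicate 3 was within 0.18 of the highest wild type. The difference, 0.95 ± 0.36 (SE) or 1.93-fold, was the smallest of the 9, and was 0.75 without wild-type replicate 1 and 0.61 without mutant replicate 1. Its 4 other probe sets were all dim, with differences of 0.16 to 1.20, and the groups overlapped on 3 of them.

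**Figure D1:**
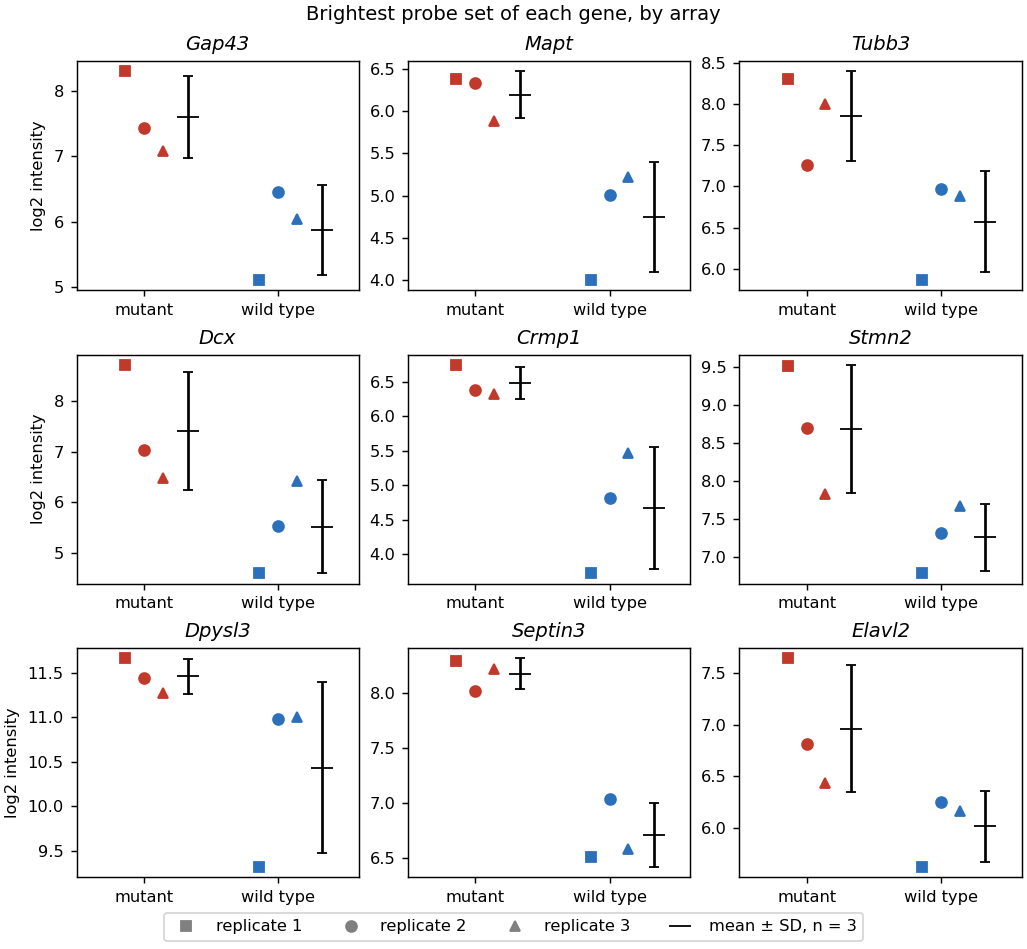
Log2 intensity (vertical axis, a separate range in each panel) of the brightest probe set of each of the 9 genes, with mutants in red left of wild types in blue, a symbol for each replicate number, and black bars for mean ± SD (n = 3). In every panel mutant replicate 1 (square) is the highest array and wild-type replicate 1 (square) the lowest.

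The ends of the order were shared by the 9 genes, and the arrays between them changed places. Mutant replicate 1 was the highest array for 9 of 9 genes and wild-type replicate 1 the lowest for 9 of 9. How many of all genes had these ends was not counted. The low end is not particular to the 9 genes. Among the lists described below, the means of broadly expressed relatives, photoreceptor and retinal progenitor markers and Schwann cell markers were also lowest in wild-type replicate 1. Mutant replicate 3 was the lowest mutant for 7 genes and replicate 2 for 2, Tubb3 and Septin3. The highest wild type was replicate 3 for 5 genes and replicate 2 for 4, Tubb3, Gap43, Septin3 and Elavl2. With each gene centred on its own mean, the 9 genes averaged 1.25, 0.57 and 0.36 in mutant replicates 1, 2 and 3, and -1.42, -0.44 and -0.32 in wild-type replicates 1, 2 and 3. Wild-type replicate 1 lay below the mean of the other 2 wild types by 0.30 (Septin3) to 1.67 (Dpysl3), and the SD was larger in wild types than in mutants for 6 of 9 genes. The labels do not say whether arrays sharing a number are paired, and the numbers were not taken to pair samples.

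Probe sets other than the brightest gave a weaker picture. There were 12 of them, of 5 genes, 10 dimmer than the median probe set. Their differences had a median of 0.58 and ran from -0.31 to 1.87, with 11 higher and 1 lower in mutants. Every mutant array was above every wild-type array on 4 of the 12, where 3.74% of all probe sets were, and nothing is read from this share because the genes were picked on this contrast. The bright probe sets among the 12, the second ones of Dcx and Stmn2, had differences of 1.87 and 1.81, beside 1.90 and 1.43 for the brightest probe sets of these genes. Tubb3, Crmp1, Gap43 and Septin3 had a single probe set each, so no second reading was available for them. Brightness was taken over all arrays, mutants included, so a higher mutant value itself helps a probe set to count as bright. In wild types alone, Mapt 1424718_at averaged 4.74, Crmp1 1448289_at 4.67 and Dcx 1418139_at 5.15, each below the median level of 5.26.

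**Figure D2:**
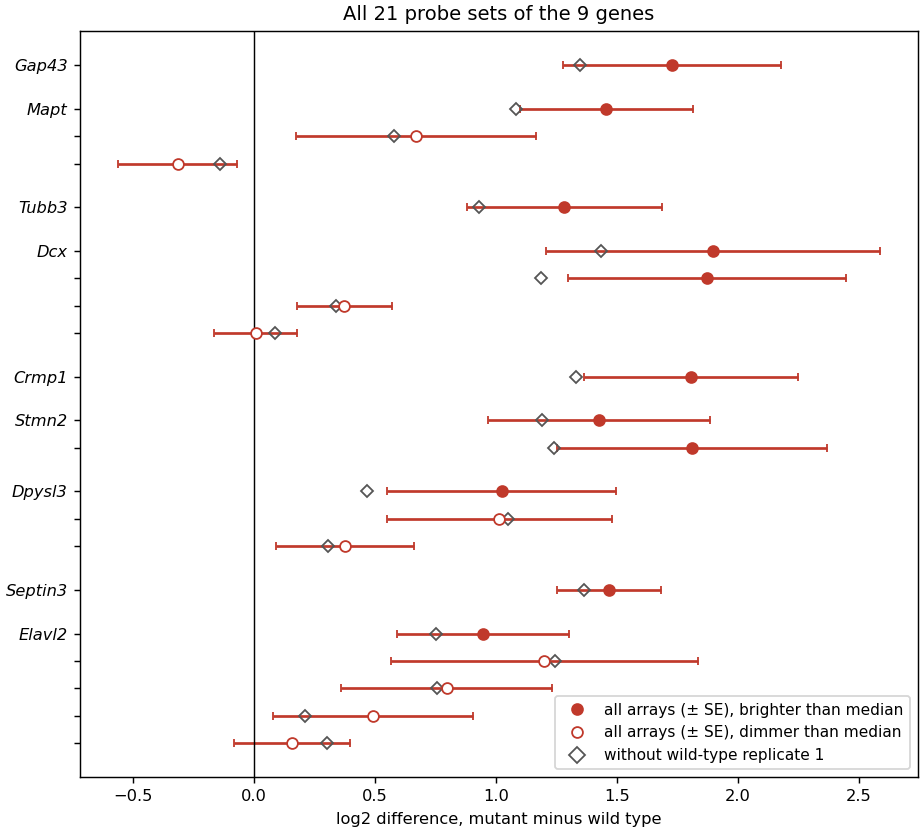
Log2 difference, mutant minus wild type (horizontal axis), for all 21 probe sets of the 9 genes, brightest first within each gene; circles with bars are the difference ± SE over all arrays, open circles mark probe sets dimmer than the median, and diamonds leave out wild-type replicate 1. The 11 bright probe sets lie between 0.95 and 1.90, and the dim ones between -0.31 and 1.20. Brightness was taken over all arrays, mutants included, so it is not independent of the difference.

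Other genes of axonal structure and growth gave a mixed picture. Of 38 listed genes 35 were measured. limma called 0 of them higher and 0 lower at an adjusted p under 0.05, where it called 0% of all genes, and the lowest adjusted p was 0.885. At an unadjusted p under 0.05 there were 6 higher and 0 lower, against 2.13% of all genes higher and 1.72% lower. Values were higher in mutants for 24 and lower for 11, with a median difference of 0.23, against -0.01 over all genes. The range was -0.35 to 1.79, so the list held genes as far apart between the groups as the 9, beside many with no difference beyond their error. Every mutant array was above every wild-type array for 9 of the 35, or 25.7%, against 4.22% of all genes; without wild-type replicate 1 this was 11 of 35, or 31.4%, against 10.8%.

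The genes of lowest p in this list were Stmn3, Elavl3, Ina and L1cam. Stmn3, a stathmin relative of Stmn2, read 11.22, 10.74 and 10.75 in mutants, against 9.50, 9.75 and 9.81 in wild types. Elavl3, the neuronal relative of Elavl2, read 9.10, 9.27 and 8.93 in mutants, against 7.34, 7.83 and 8.05 in wild types. Both moved little without wild-type replicate 1: the differences of 1.22 ± 0.21 and 1.36 ± 0.24 (SE) became 1.13 and 1.16 without it. Ina, the neuronal intermediate filament alpha-internexin, read 9.24, 8.90 and 8.40 in mutants, against 6.97, 7.21 and 7.66 in wild types, a difference of 1.57 ± 0.29. L1cam, an adhesion molecule of axons, read 7.57, 6.83 and 6.49 in mutants, against 5.66, 5.33 and 5.68 in wild types, a difference of 1.41 ± 0.31. Their limma adjusted p was 0.885 for Stmn3 and Elavl3, 0.928 for Ina and 0.999 for L1cam, so none passed. Their other probe sets differed by 1.08 (Stmn3), 0.97 and 0.18 (Elavl3), 1.26 and 1.06 (Ina) and 0.00 (L1cam), the values of Ina, that of L1cam and the lower one of Elavl3 being from dim probe sets.

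Close relatives of the 9 genes, named here for their family and after their values were seen, were not all alike. Among the stathmins, Stmn1, which dividing cells also express, differed by 0.23 ± 0.18 (log2, SE) and Stmn4 by 0.72 ± 0.46, with 1.10 for Stmn4 when wild-type replicate 1 was left out. Among the collapsin response mediators, Dpysl4 differed by 1.28 ± 0.57, Dpysl5 by 0.26 ± 0.35 and the dim Dpysl2 by -0.27 ± 0.20; leaving out the same array gave 1.33, 0.59 and -0.29. The neuronal Elavl4 differed by 0.19 ± 0.49, and its value was -0.06 without wild-type replicate 1. The tubulins Tubb2a, Tubb2b and Tuba1a differed by -0.35 ± 0.21, 0.00 ± 0.24 and 0.05 ± 0.16, and that of Tubb2b became 0.16 with that array left out. These values are from the brightest probe sets, and others of the same genes could differ. A second bright Tubb2a probe set differed by -0.71 ± 0.26, with every mutant array below every wild type. A second bright one of Stmn1 differed by 0.80 ± 0.47, or 0.33 without wild-type replicate 1. The other Dpysl4 probe sets differed by 0.99 ± 0.48 and, for the dim one, -0.02 ± 0.32. Map1b, a microtubule-associated protein of growing axons, read 8.68, 7.32 and 7.95 in mutants, against 4.82, 9.07 and 7.08 in wild types. Its difference of 0.99 ± 1.02 was -0.09 without wild-type replicate 1. A second Map1b probe set, about as bright, went the other way, with 7.98, 8.03 and 5.25 in mutants, against 8.02, 7.56 and 7.87 in wild types, a difference of -0.74 ± 0.74, so the direction for Map1b is not settled.

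**Figure D3:**
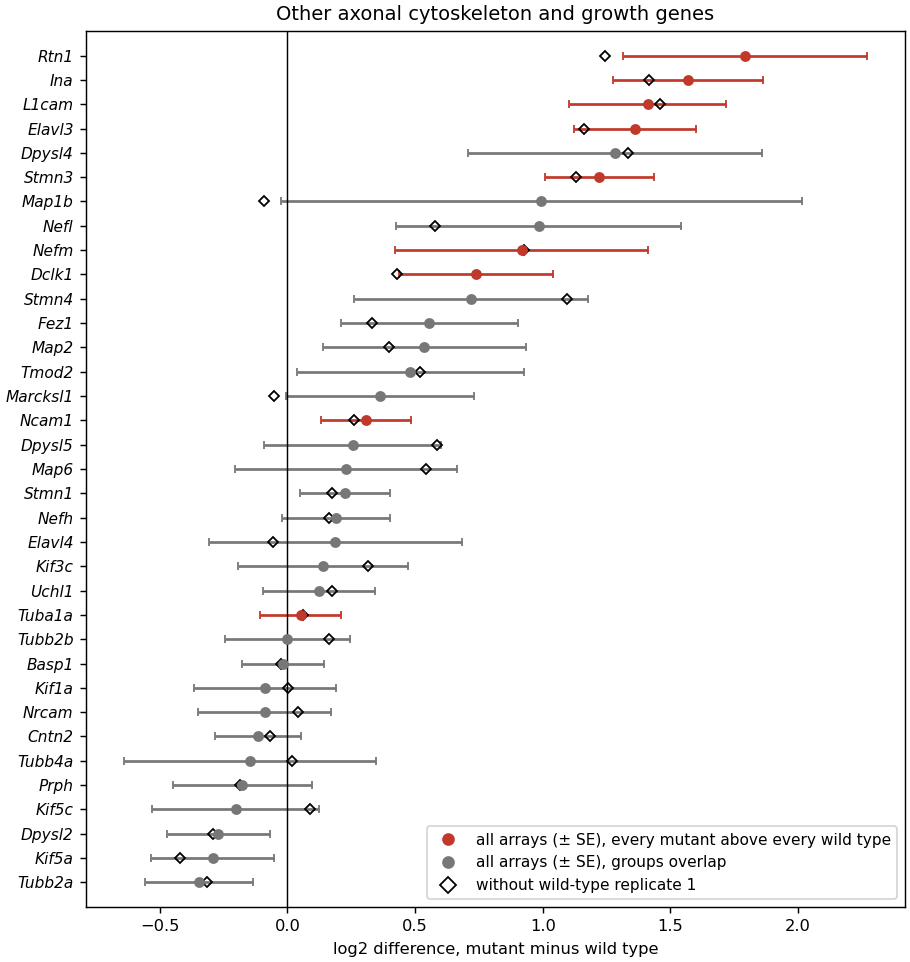
Log2 difference, mutant minus wild type (horizontal axis, circles with SE bars), of the 35 other axonal cytoskeleton and growth genes, with red for genes whose every mutant array was above every wild-type array and grey for overlap; diamonds leave out wild-type replicate 1. The values run from -0.35 (Tubb2a) to 1.79 (Rtn1), and Map1b, Marcksl1 and Elavl4 are above 0 over all arrays and below 0 without wild-type replicate 1.

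Relatives that most cell types express were spread around 0. Of 12 measured tubulins, septins and other relatives, 8 were higher and 4 lower in mutants, with a median difference of 0.08, and limma called 0 at an adjusted p under 0.05, where 0 also had an unadjusted p under 0.05. In none of the 12 were the groups apart. Of all 12393 genes, 4.22% were apart with mutants higher and 568 genes with mutants lower. A count of 0 in 12 is close to these shares, so nothing is read from it. Without wild-type replicate 1 the median was -0.14 and 1 of 12 was higher. The 3 of lowest p were Tubb4b (-0.46 ± 0.33, SE), Tubb5 (0.40 ± 0.45) and Septin2 (0.33 ± 0.42), and their limma adjusted p was 0.999. All 3 were closer to 0 without wild-type replicate 1, at -0.15, -0.12 and -0.12. This list was also low in wild-type replicate 1, where its mean log2 level was 8.69; the mutants held 9.22 to 9.50, and wild-type replicates 2 and 3 held 9.65 and 9.42.

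Genes known to switch neuronal programmes on or off were measured for 10 of 11 listed. Neurog2, a proneural transcription factor of retinal progenitors and other neural precursors, read 9.31, 7.62 and 8.24 in mutants, against 6.35, 6.99 and 6.99 in wild types. Myt1, a zinc finger factor of differentiating neurons, read 10.48, 10.26 and 10.31 in mutants, against 6.62, 9.63 and 9.64 in wild types. The difference of Neurog2 was 1.61 ± 0.45 (SE), or 1.40 without wild-type replicate 1, and that of Myt1 was 1.72 ± 0.80 and 0.71 without wild-type replicate 1. For Neurod1 the difference was 1.13 ± 0.54, or 0.53 with that array left out. limma called 0 of the 10, with an adjusted p of 0.999 for each of these 3. At an unadjusted p under 0.05 there was 1, higher in mutants, against 2.13% of all genes higher. The median difference of the list was 0.47, and 0.05 without wild-type replicate 1. Its mean log2 level was 7.70, 7.47 and 7.52 in mutants, against 6.38, 7.34 and 7.28 in wild types.

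Markers of neighbouring cells, among them neurons, which are known to express these 9 genes, were measured on the same arrays. Retinal ganglion cell markers, 9 of 11 measured, had the same highest and lowest array as the 9 genes. So did the other axonal genes and the regulators of neuronal genes. The sensory and autonomic neuron list did so only through the dim Chrna3, at 6.28 in mutant replicate 1 and 3.06 in wild-type replicate 1. No other marker of that list had either array at that end. The mean log2 level of the ganglion cell markers was 7.14, 6.62 and 6.39 in mutant replicates 1, 2 and 3, against 5.37, 6.22 and 6.01 in wild-type replicates 1, 2 and 3. Of the 9 markers 8 were higher in mutants, with a median difference of 0.50, and 0.69 without wild-type replicate 1. The groups were apart for 3 of the 9, against 4.22% of all genes, and for 4 of the 9 without wild-type replicate 1, against 10.8%. limma called 0 at an adjusted p under 0.05. At an unadjusted p under 0.05 there were 2, both higher in mutants, against 2.13% of all genes higher. Slc17a6, a vesicular glutamate transporter that was dim, differed by 1.53 ± 0.40 (SE), the homeobox gene Isl1 by 1.89 ± 0.71 and Sncg, gamma-synuclein, by 1.25 ± 0.58, all at an adjusted p of 0.999. Leaving out wild-type replicate 1 lowered these to 1.09, 1.06 and 0.69. Of the 9 markers 3 were dimmer than the median probe set, Slc17a6, Thy1 and Pou4f3.

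Photoreceptor and retinal progenitor markers, 11 of 14 measured, were higher in mutants for 11 of 11, with a median difference of 0.62; without wild-type replicate 1 the median was 0.21, and 9 of 11 were higher. Their mean level was 5.90, 6.20 and 5.52 in mutants, against 4.82, 5.19 and 5.89 in wild types, so the groups overlapped and mutant replicate 1 was not the highest. The 3 of lowest p, all at a limma adjusted p of 0.999, were the cone transducin Gnat2 (0.74 ± 0.26, SE), Six6 (0.62 ± 0.29) and Crx (1.16 ± 0.58). Without wild-type replicate 1 they stood at 0.73, 0.38 and 0.51. Of the 11, 5 were dimmer than the median probe set: Gnat2, Lhx2, Rcvrn, Nrl and Pde6b. limma called 0 of the 11, and 1, higher in mutants, had an unadjusted p under 0.05, against 2.13% of all genes higher.

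Markers of nerve outside the retina were mostly faint. All 5 measured markers of sensory and autonomic neurons were dimmer than the median probe set, with a median difference of -0.12 and 0 called by limma or at an unadjusted p under 0.05. Chrna3 (1.10 ± 0.64, SE), Th (-0.32 ± 0.22) and Scn9a (-0.16 ± 0.17) had the lowest p, with an adjusted p of 0.999, and stood at 0.73, -0.37 and -0.22 without wild-type replicate 1. The list's mean log2 level was 3.51, 2.95 and 3.10 in mutants, against 2.87, 3.11 and 3.21 in wild types. Of 6 measured Schwann cell markers 4 were dim and 3 were higher, with a median difference of 0.24, and of 0.00 without wild-type replicate 1. Those of lowest p were the myelin gene Mbp at 0.96 ± 0.27, Erbb3 at 0.51 ± 0.25 and S100b at -0.32 ± 0.19, all at an adjusted p of 0.999. limma called 0 of these 6, and 1, higher in mutants, had an unadjusted p under 0.05, against 2.13% of all genes higher.

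Macrophage, pigment cell and lens markers did not have both the highest and the lowest array in common with the 9 genes. The 10 macrophage markers were highest in mutant replicate 2, with mean levels of 4.97, 6.32 and 5.13 in mutants, against 4.91, 4.68 and 4.84 in wild types. Ptprc (1.08 ± 0.36, SE) and Cd68 (0.90 ± 0.37), both dim, and Lyz2 (0.81 ± 0.34) had the lowest p. The median difference of the macrophage markers was 0.85, and 0.72 without wild-type replicate 1. The 6 measured pigment cell markers averaged 5.80, 5.62 and 5.59 in mutants, against 5.22, 5.54 and 5.05 in wild types. Those of lowest p were Pmel at 0.74 ± 0.24, Dct at 1.05 ± 0.39 and the dim Rpe65 at -0.43 ± 0.19. The median difference of this list was 0.60, and 0.30 without wild-type replicate 1. The 11 lens markers averaged 10.61, 10.72 and 10.76 in mutants, against 10.86, 11.11 and 11.14 in wild types, with 9 lower. Cdh1 (-1.29 ± 0.30), Bfsp1 (-0.65 ± 0.22) and the dim Foxe3 (-0.71 ± 0.29) had the lowest p. The median difference of the lens markers was -0.28, and -0.45 without wild-type replicate 1. limma called 0 genes in each of these lists, at an adjusted p of 0.999 for those named. At an unadjusted p under 0.05 there were 2 macrophage and 2 pigment cell markers higher and 3 lens markers lower, against 2.13% of all genes higher and 1.72% lower. The part that RNA of retinal or other neighbouring cells plays in the values of the 9 genes was not tested.

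**Figure D4:**
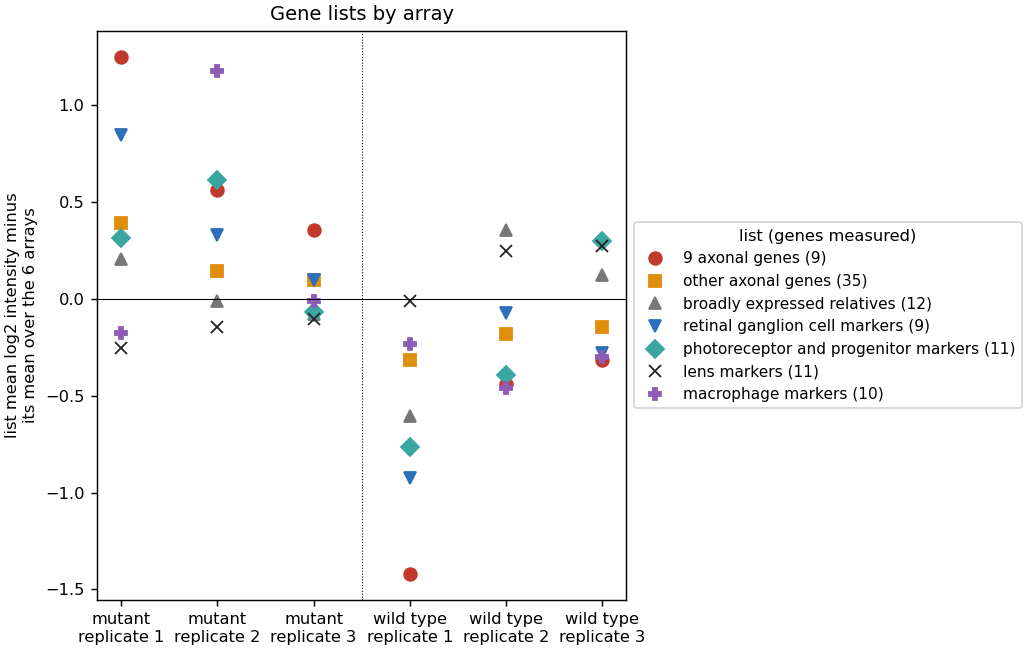
Mean log2 intensity of the gene lists named in the legend on each of the 6 arrays, minus the list's own mean over the arrays (vertical axis), mutants left of the dotted line and wild types right of it. The 9 axonal genes (red circles) stand at 1.25 in mutant replicate 1 and -1.42 in wild-type replicate 1, and retinal ganglion cell markers (blue triangles) at 0.85 and -0.92 on the same arrays, while macrophage markers (purple) peak at 1.18 in mutant replicate 2.

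Genes whose pattern over the 6 arrays was most like that of the 9 were looked for among the 6867 genes brighter than the median probe set. Likeness was the root mean square distance, in log2 units, between a gene's centred values and the average centred values of the 9, so a smaller number is closer. Besides members, the nearest were Astn1 (0.19), Slc2a3 (0.23), Ina (0.25), D430019H16Rik (0.28), Skp2 (0.29) and Zic5 (0.30). Astn1 encodes astrotactin, a membrane protein of young migrating neurons, and read 7.05, 6.77 and 6.39 in mutants, against 4.55, 5.90 and 5.55 in wild types. Slc2a3, the glucose transporter GLUT3 that is abundant in neurons, read 7.41, 6.99 and 7.05 in mutants, against 5.25, 6.43 and 6.34 in wild types. Skp2, an F-box protein of the cell cycle, and Zic5, a zinc finger transcription factor, were in the list as well, so it was not made of axonal genes alone. Among the 9 genes themselves, Mapt was the closest to their average (0.19) and Dcx the farthest (0.52), ranking at 183 of the 6867.

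The 9 genes each lie on a different chromosome, so none is a neighbour of another. Promoter windows, from 250 bases before to 50 bases after a start site, were given by RefSeq on GRCm38.p6 for 4 of the 9 genes (Tubb3, Dcx, Crmp1 and Elavl2), 11 windows in all, of which several belong to alternative starts of a gene and overlap. Since AP-2 factors are known to bind GC-rich palindromes, the windows were searched for GCCNNNGGC, which reads the same on both strands. It was found in 1 of the 11, at bases 19 to 27 after the first Crmp1 start, as GCCGCGGGC, and in 16.6% of the 32851 windows of all genes. A match describes letters only. The 250 bases upstream are shown for 3 of the genes with higher values in mutants, chosen because their promoters differ in composition, with TATAAA, searched on both strands and found in 13.6% of all windows, in capitals.
Crmp1 (chr5:37241808-37242057, plus strand): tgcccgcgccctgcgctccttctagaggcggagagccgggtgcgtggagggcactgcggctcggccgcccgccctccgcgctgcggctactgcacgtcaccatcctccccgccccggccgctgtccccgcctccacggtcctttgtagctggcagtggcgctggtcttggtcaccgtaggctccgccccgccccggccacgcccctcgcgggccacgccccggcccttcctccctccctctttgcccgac
Tubb3 (chr8:123411303-123411552, plus strand): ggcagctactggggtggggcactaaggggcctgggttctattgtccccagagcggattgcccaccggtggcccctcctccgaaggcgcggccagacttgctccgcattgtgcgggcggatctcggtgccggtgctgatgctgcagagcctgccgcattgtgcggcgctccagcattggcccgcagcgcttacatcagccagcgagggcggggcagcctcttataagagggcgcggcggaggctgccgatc
Dcx (chrX:143933125-143933374, minus strand): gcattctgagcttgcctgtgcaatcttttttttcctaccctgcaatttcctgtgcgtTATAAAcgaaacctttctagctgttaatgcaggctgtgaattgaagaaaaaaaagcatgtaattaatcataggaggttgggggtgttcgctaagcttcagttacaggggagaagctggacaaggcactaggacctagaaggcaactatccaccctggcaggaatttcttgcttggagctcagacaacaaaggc
The Crmp1 and Tubb3 stretches hold 30 and 21 CG pairs and are 75.6% and 68% G or C, and the Dcx stretch holds 3 CG pairs and is 44.8% G or C. TATAAA occurs in both Dcx windows and in no other of the 11. The Dcx windows overlap and share a single site, 193 and 98 bases before their starts. Only the exact string was searched, so near matches, such as tataag close to the end of the Tubb3 stretch, were not counted.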

How the data were processed

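Per the labels' protocols, total lens RNA was amplified (Nugen Ovation) and biotin-labelled. The values are deposited intensities of probe sets on a linear scale, and RMA, which corrects background, normalises by quantiles and summarises probes, is named per the submitters' processing notes. Its version and the step to a linear scale are not given in the sources used here. Such steps can shrink differences at low intensity and hide a shift of a whole array.

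The log2 of each value was taken, with no pseudocount and no further normalisation. Array medians were 36.5 to 40.0 in intensity. After leaving out 64 array controls, 22626 probe sets were tested. Of these, 20380 had 1 symbol in the platform annotation of 2016, 691 had several and 1555 had none; 20351 matched a RefSeq table by Entrez ID. A gene was represented by its brightest probe set over all arrays, and "dim" means below the median mean level of 5.26. The highest share of equal values between arrays was 0.186%.

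R 4.3.3 and limma 3.58.1 (lmFit, eBayes) compared mutant with wild type, two-sided, with Benjamini-Hochberg adjustment over all probe sets and a threshold of 0.05. The fit was tested on simulated data. The 9 genes, the other lists and the tests were chosen with earlier results of these data known. Named were all 9 genes with all their probe sets, the genes of lowest p in each list (4 for the other axonal genes, 3 for the rest) and the 6 nearest profiles; relatives were named beyond this rule. Alternatives were a replicate block, leaving out arrays, median centring, quantile normalisation, a pseudocount of 16, leaving out dim probe sets, mean probe sets, a trended prior and array weights. The number of arrays limits the precision.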

Additional observations from a re-analysis of the deposited data

How the results depend on the processing

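The difference of each of the 9 genes stayed above 0 under all 14 alternatives, from 0.47 (Dpysl3 without wild-type replicate 1) to 2.36. The genes were picked for being higher in these same arrays, so this is a description. Of 126 values 2 moved by more than the replicate SD: Mapt as the mean of its probe sets (0.60) and Crmp1 with array weights (1.13). Some of the 126 could not be counted as moved. With a single array left out no value could pass that SD, because the SD was taken over all arrays, that array included. Dpysl3, at 1.02 with all arrays and 0.47 without wild-type replicate 1, was thus not counted. The replicate block and leaving out dim probe sets returned each gene's main difference, as did mean probe sets for the 4 genes with 1 probe set. The median of the 9 genes, 1.46, was 1.19 to 1.63 with single arrays left out and 1.09 with array weights. The median of the other axonal genes, 0.23, was 0.17 to 0.33 with single arrays left out. Array weights called 7 probe sets, with none of them among the other axonal genes or the broadly expressed relatives. Those weights were 0.224 for wild-type replicate 1, 0.569 for replicate 2 and 5.65 for replicate 3, so the wild-type mean rested mostly on replicate 3; no other alternative fitted to probe sets called one. The count of other axonal genes whose groups were apart was 9, and 11 without wild-type replicate 1, an alternative added after seeing the data. The same replicate numbers correlated at -0.07, -0.26 and -0.16 in their deviations from the group means, so the numbers were not taken to pair samples; with the replicate number as a block the median of the 9 genes was 1.46 and 0 probe sets were called.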
